A study of Mus musculus with 48 samples.

Results

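Glucocorticoid-induced stress genes were followed in hippocampal CA tissue as 10 of the 24421 genes in the count table: *Sgk1*, *Fkbp5*, *Tsc22d3*, *Zbtb16*, *Cdkn1a*, *Ddit4*, *Nfkbia*, *Mt1*, *Mt2* and *Plin4*. They were taken by gene symbol as known targets of the glucocorticoid receptor in brain. RNA-sequencing of 48 male mice formed 8 groups by line, genotype and state, with 1 library per mouse. In the Glu-CB1 line (nex-cre x CB1f/f), Cre under the control of *Nex* removes the cannabinoid receptor CB1 from glutamatergic neurons of the forebrain. In the GABA-CB1 line (dlx5/6-cre x CB1f/f), Cre under the control of *Dlx5/6* removes it from GABAergic forebrain neurons. The tissue therefore still holds CB1 of all other cells. The mice were 8 weeks old by the sample labels and 8 to 10 weeks by the protocols. Basal mice came from the home cage, and open field mice spent 5 min in an unfamiliar arena, with tissue taken 60 min later. The Glu-CB1 line gave 5 WT and 7 KO mice in each state. The GABA-CB1 line gave 6 WT and 6 KO basal mice, and 7 WT and 5 KO open field mice. For these open field mice the sizes of WT and KO stand the other way round in the text of the paper, and the labels were followed. The study kept mice for sequencing partly by their behavior, tissue purity and *Arc* mRNA, so the groups are not a random draw.

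Corticosterone released by a stressor enters brain cells and binds the glucocorticoid receptor (*Nr3c1*) and the mineralocorticoid receptor (*Nr3c2*). The ligand-bound receptor moves to the nucleus, binds glucocorticoid response elements and raises or lowers transcription of its targets. Several targets feed back on the hormone signal, on inflammation or on growth, and many are expressed in glia and vascular cells as well as in neurons.

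Libraries held 25892700 to 34091100 reads counted on genes (rounded). *Cnr1*, the deleted gene, ranged from 310.8 to 412 CPM (counts scaled to a common library total with TMM factors) in the 23 WT mice and from 100.3 to 249.4 CPM in the 25 KO mice, without overlap. *Arc*, the activity marker, had a log2 fold change of 0.68 after the open field (SE 0.11, adjusted p = 5.99e-05). Mice were kept partly by *Arc* mRNA, so this rise is not an independent check of the exposure. The part of that selection in the response of the members was not tested. A principal component computed within groups held 20.3% of the variance, and it ran from -0.17 to 0.31 in basal and from -0.17 to 0.25 in open field mice. Summed markers of astrocytes were 4861 to 5978 CPM in basal and 4761 to 5723 CPM in open field mice, those of oligodendrocytes 3091 to 5169 and 3171 to 5156 CPM, of microglia 338 to 412 and 335 to 432 CPM, and of endothelial and mural cells 212 to 314 and 190 to 319 CPM. Marker sums of CA1 pyramidal cells were 726 to 1015 and 684 to 980 CPM, and those of dentate granule cells were 101 to 309 and 123 to 240 CPM. Choroid plexus markers, which are not part of CA tissue, summed to 40.8 to 1510 CPM in basal and 48.1 to 4058 CPM in open field mice, and the highest sum was in GABA-CB1-KO open field replicate 4. Of the blood markers, 4 hemoglobin genes were listed at 0 in all 48 libraries. In bulk tissue, fewer cells of a type cannot be told apart from less RNA per cell.

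Promoter sequences of RefSeq (GRCm38.p6) were matched for 9 of the 10 members, in 17 windows. A perfect palindromic glucocorticoid response element, AGAACA and TGTTCT with 3 free bases between them, searched on both strands in the 250 bases before each start site, was found in 3 of 32851 windows (0.00913%), 1 of which belongs to *Sgk1*. Its first base lies at position -189 of that start site, counted from -1 at the base before it. The window is shown because it holds the element. Windows of the other start sites of *Sgk1* and of the other matched members held no full element. It is chr10:21993640-21993889 on the plus strand, with the element in capitals.
Sgk1: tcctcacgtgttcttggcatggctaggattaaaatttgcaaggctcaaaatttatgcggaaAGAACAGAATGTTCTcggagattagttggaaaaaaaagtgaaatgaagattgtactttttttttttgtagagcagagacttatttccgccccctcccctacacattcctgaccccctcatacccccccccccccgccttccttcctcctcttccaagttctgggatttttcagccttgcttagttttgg
The single site AGAACA, which the full element holds in both orientations, was found in 16.1% of all windows. Metal response elements were searched as TGCACNC or TGCGCNC on both strands, and 21.4% of all windows held at least 1. Of the members, *Mt2* held 3, and *Mt1*, *Ddit4* and *Nfkbia* held 1 each. The windows of *Mt2* and *Mt1* are shown because metals act on metallothionein genes beside the hormone. They are chr8:94172368-94172617 and chr8:94178839-94179088, both on the plus strand, with the elements in capitals.
Mt2: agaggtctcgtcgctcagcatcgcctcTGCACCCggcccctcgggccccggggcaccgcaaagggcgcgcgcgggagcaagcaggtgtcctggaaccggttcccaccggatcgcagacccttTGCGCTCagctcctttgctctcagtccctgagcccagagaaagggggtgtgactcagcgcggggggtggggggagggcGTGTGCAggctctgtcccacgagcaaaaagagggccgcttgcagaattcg
Mt1: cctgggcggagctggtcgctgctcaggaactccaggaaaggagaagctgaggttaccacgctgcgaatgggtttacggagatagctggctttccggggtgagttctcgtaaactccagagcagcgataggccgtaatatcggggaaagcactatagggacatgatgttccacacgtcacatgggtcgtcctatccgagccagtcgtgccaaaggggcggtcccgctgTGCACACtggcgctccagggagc
No exon in the count table overlaps any of the 3 windows. A match to these letters is a description of the sequence, and binding was not measured.

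All 10 members passed the filter on low counts in each of the 13 comparisons. Per kilobase of exon, the medians over 48 mice placed *Mt1* (167 CPM per kb) and *Mt2* (116 CPM per kb) highest, and in 48 of 48 mice *Mt1* lay above *Mt2* and *Mt2* above *Tsc22d3*. *Tsc22d3* (28.7), *Sgk1* (24.8), *Fkbp5* (21.8) and *Ddit4* (20.4 CPM per kb) followed. These 4 overlapped, with each above the next in 36, 35 and 31 of 48 mice. *Zbtb16* (15) and *Nfkbia* (9.85 CPM per kb) came next, with *Ddit4* above *Zbtb16* and *Zbtb16* above *Nfkbia* in 47 of 48 mice each. *Cdkn1a* (2.11) and *Plin4* (0.517 CPM per kb) were lowest, with *Nfkbia* above *Cdkn1a* in 48 of 48 mice and *Cdkn1a* above *Plin4* in 46. The length is that of all annotated exons, so genes with alternative first exons such as *Sgk1* are placed lower by this measure. Levels over the 48 mice varied least in *Zbtb16* (coefficient of variation 9.81%) and *Fkbp5* (10.4%), and most in *Plin4* (91.1%), whose highest value was 19.0 times its lowest.

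**Figure D1:**
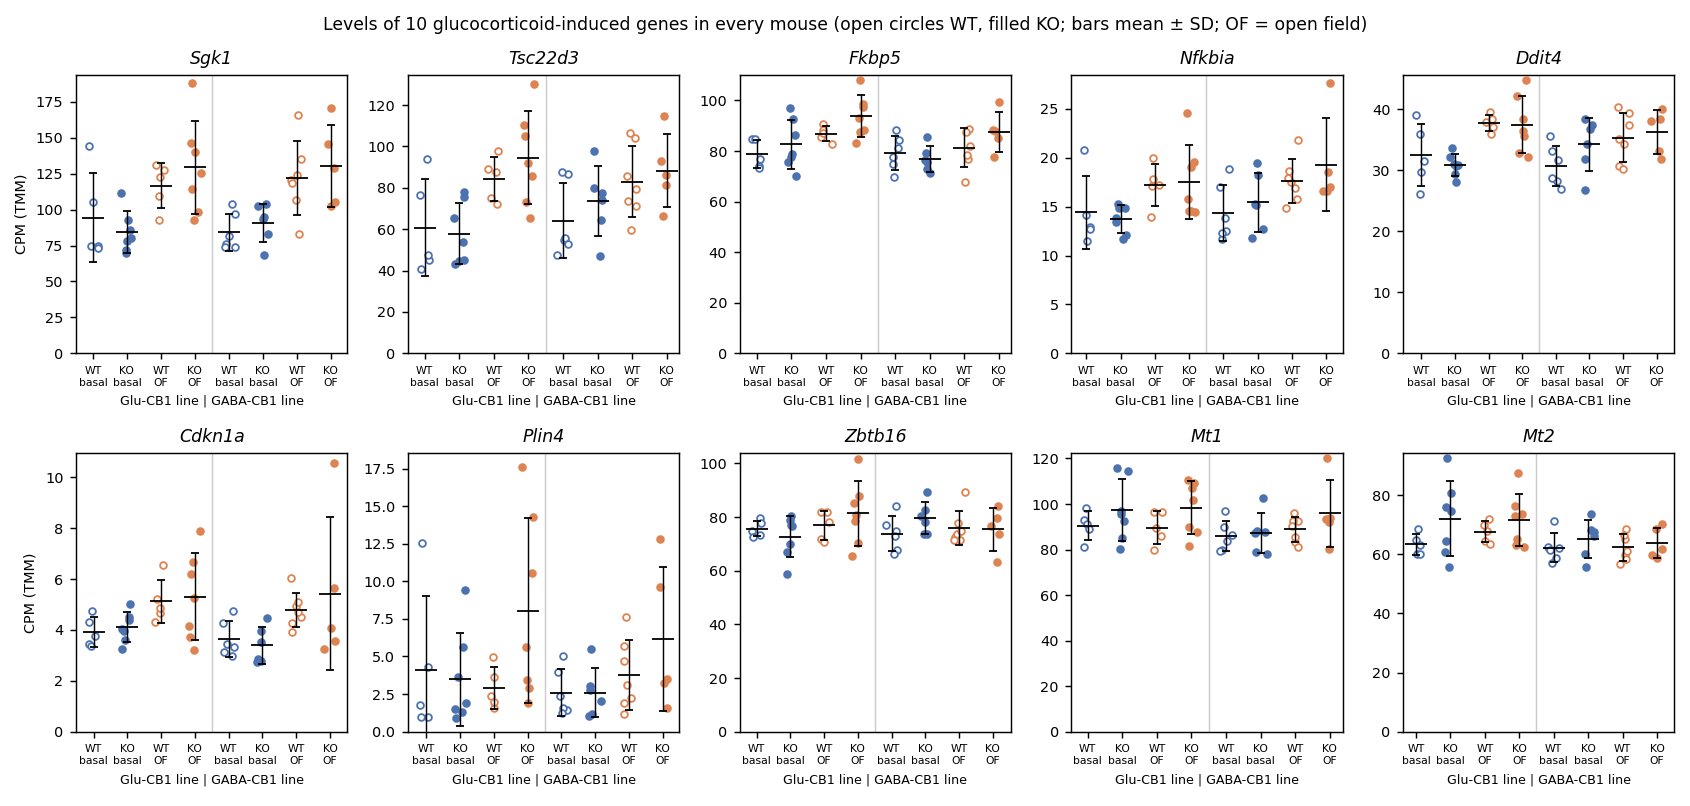
Level of each member in every mouse, in CPM scaled by TMM (vertical axes start at 0), by line, genotype and state. Each circle is 1 mouse, blue for basal and orange for open field (OF), open for WT and filled for KO, and black bars give the mean ± SD of the group. *Sgk1*, *Tsc22d3* and *Nfkbia* sit higher in the orange groups, *Mt1* and *Mt2* overlap almost entirely, and *Plin4* is spread widely in every group.

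The comparison of open field with basal mice asks which genes respond to a brief stay in an unfamiliar arena. Over both lines, 6 of the 10 members rose (edgeR quasi-likelihood test, Benjamini-Hochberg adjusted p under 0.05), and none fell. Among all 15570 genes tested, 5.53% were called higher in this comparison. The median log2 fold change of the 10 members was 0.25, against 0.00 (-0.0041) for all genes. The members that rose were the kinase *Sgk1*, the feedback and anti-inflammatory genes *Fkbp5*, *Tsc22d3* and *Nfkbia*, and the growth inhibitors *Ddit4* and *Cdkn1a*. *Plin4*, *Zbtb16*, *Mt1* and *Mt2* did not pass the test. The paper reports no corticosterone level for these mice, and whether the hormone caused these changes was not tested.

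*Sgk1* (chromosome 10, 21882184 to 21999902, plus strand, mm10) encodes serum- and glucocorticoid-regulated kinase 1, which acts on ion channels and transporters. Basal mice ran from 68.5 to 144 CPM with a median of 82.2 CPM, and open field mice from 82.9 to 188 CPM with a median of 123 CPM. Ranges of the states overlapped, but 24 of 24 open field mice lay above the basal median and 1 of 24 basal mice lay above the open field median. The level was 1.41 times as high after the open field (log2 fold change 0.49, SE 0.08, adjusted p = 5.99e-05). In the Glu-CB1 line, basal means were 94.4 ± 30.8 CPM (SD, n = 5) in WT and 84.3 ± 14.5 CPM (n = 7) in KO mice, and open field means 117 ± 15.6 (n = 5) and 129 ± 32.5 CPM (n = 7). For GABA-CB1 mice the basal means were 84.4 ± 12.9 CPM (n = 6) in WT and 90.9 ± 13.3 CPM (n = 6) in KO, and the open field means 122 ± 25.5 (n = 7) and 131 ± 28.6 CPM (n = 5). Each open field mean lay above all 4 basal means.

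*Fkbp5* (chromosome 17, 28398753 to 28486149, minus strand) encodes a co-chaperone of Hsp90 that lowers the affinity of the receptor for its hormone and so forms a short feedback loop. Basal mice ran from 69.6 to 97.2 CPM (median 77.7) and open field mice from 67.7 to 108 CPM (median 87.8). The states overlapped widely, although 21 of 24 open field mice lay above the basal median. The rise was small and passed the test (1.10 times, log2 fold change 0.14, SE 0.04, adjusted p = 0.00937). Group means lay between 76.9 ± 5.19 CPM in GABA-CB1-KO basal mice (SD, n = 6) and 93.8 ± 8.40 CPM in Glu-CB1-KO open field mice (n = 7).

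*Tsc22d3* (chromosome X, 140539529 to 140600522, minus strand) encodes the glucocorticoid-induced leucine zipper, which restrains NF-kB and AP-1. It ran from 40.7 to 97.9 CPM (median 60.1) in basal and from 59.8 to 130.1 CPM (median 86.1) in open field mice. The upper part of the basal range reached into the open field range, and 4 of 24 basal mice lay above the open field median. The level was 1.37 times as high after the open field (log2 fold change 0.45, SE 0.10, adjusted p = 0.00177). Glu-CB1 means went from 60.8 ± 23.3 to 84.3 ± 10.5 CPM in WT and from 57.9 ± 14.9 to 94.5 ± 22.4 CPM in KO mice (SD, group sizes as above). GABA-CB1 means went from 64.2 ± 17.9 to 83.0 ± 17.2 CPM in WT and from 73.5 ± 16.9 to 88.3 ± 17.7 CPM in KO mice.

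*Nfkbia* (chromosome 12, 55489409 to 55492647, minus strand) encodes IkB alpha, which holds NF-kB in the cytoplasm. Levels were lower than those of *Tsc22d3*, from 11.5 to 20.8 CPM (median 13.8) in basal and from 13.9 to 27.7 CPM (median 17.2) in open field mice. Every open field mouse lay above the basal median, and 13 of 24 basal mice lay below the lowest open field mouse. The rise was 1.23 times (log2 fold change 0.30, SE 0.07, adjusted p = 0.00473). Group means were 13.7 ± 1.43 to 15.4 ± 2.99 CPM in the basal groups and 17.2 ± 2.18 to 19.3 ± 4.75 CPM in the open field groups.

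*Ddit4* (chromosome 10, 59949675 to 59951770, minus strand) encodes REDD1, an inhibitor of mTORC1. Basal mice ran from 26.2 to 39.1 CPM (median 31.6) and open field mice from 30.2 to 44.7 CPM (median 37.3). Most of the 2 ranges was shared, and 22 of 24 open field mice lay above the basal median. The rise was 1.15 times (log2 fold change 0.20, SE 0.04, adjusted p = 0.00269). *Cdkn1a* (chromosome 17, 29090986 to 29100722, plus strand) encodes the cyclin-dependent kinase inhibitor p21. It was scarce, with 85 to 324 reads per library. Basal mice ran from 2.73 to 5.03 CPM (median 3.68) and open field mice from 3.21 to 10.6 CPM (median 4.78), and 10 of 24 open field mice lay above every basal mouse. The rise was 1.37 times (log2 fold change 0.45, SE 0.10, adjusted p = 0.00269). The highest *Cdkn1a* value, 10.6 CPM, came from GABA-CB1-KO open field replicate 4, the library with the highest choroid plexus sum, and without that library the log2 fold change was 0.36 and still passed the test.

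*Plin4* (chromosome 17, 56100591 to 56109802, minus strand) encodes perilipin 4, a coat protein of lipid droplets. Basal mice ran from 0.927 to 12.6 CPM (median 1.95) and open field mice from 1.19 to 17.6 CPM (median 3.46). Mice of both states covered nearly the whole range, and 8 of 24 basal mice lay above the open field median. Its log2 fold change of 0.62 was numerically above those of all other members, but so was its error (SE 0.30), and it did not pass the test (adjusted p = 0.22). Leaving out each library in turn gave log2 fold changes from 0.50 to 0.89. The highest came without Glu-CB1-WT basal replicate 3, at 12.6 CPM, and passed (adjusted p = 0.0467). *Zbtb16* (chromosome 9, 48654297 to 48835945, minus strand) encodes the transcriptional repressor PLZF. It ran from 59.0 to 89.3 CPM (median 75.8) in basal and from 63.1 to 101.8 CPM (median 77.3) in open field mice. The log2 fold change was 0.04 (95% confidence interval -0.04 to 0.12, adjusted p = 0.672).

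*Mt1* (chromosome 8, 94179089 to 94180327, plus strand) and *Mt2* (chromosome 8, 94172618 to 94173567, plus strand) encode metallothioneins, small proteins that bind zinc and copper, and are neighbors with 5521 bases between them. *Mt1* ran from 78.1 to 116 CPM (median 88.6) in basal and from 79.9 to 120.4 CPM (median 92.1) in open field mice. *Mt2* ran from 55.5 to 92.4 CPM (median 63.8) and from 56.6 to 87.5 CPM (median 65.2). For both genes the states overlapped almost entirely. The log2 fold change of *Mt1* was 0.05 (95% confidence interval -0.04 to 0.13, adjusted p = 0.594), and that of *Mt2* 0.01 (-0.07 to 0.10, adjusted p = 0.906).

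**Figure D2:**
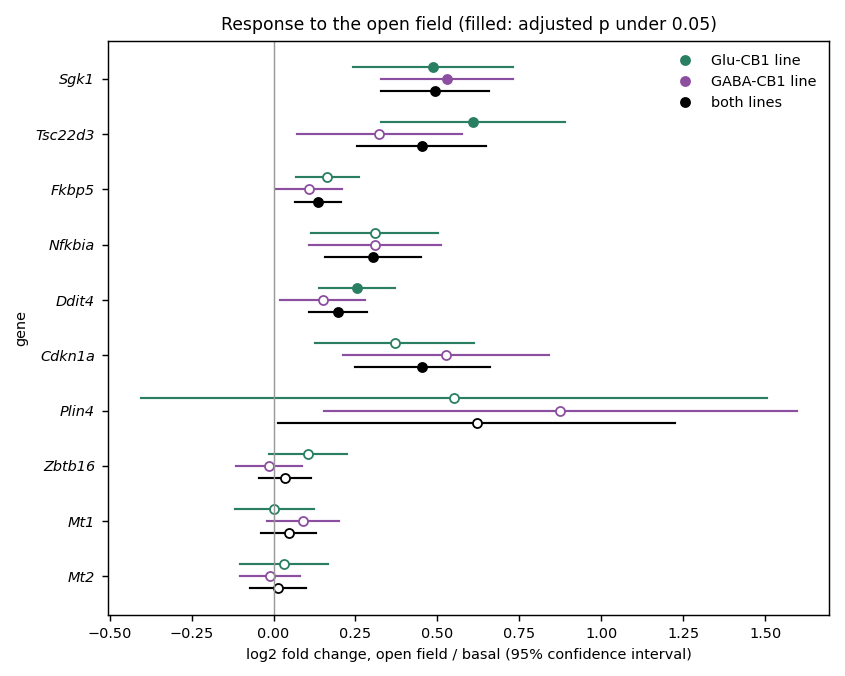
Log2 fold change of each member, open field over basal, with its 95% confidence interval, in the Glu-CB1 line (green), the GABA-CB1 line (purple) and both lines (black). Filled circles passed the test. *Sgk1* is filled in all 3, *Mt1*, *Mt2* and *Zbtb16* sit near 0, and the intervals of *Plin4* are the widest.

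In the Glu-CB1 line, 3 of 10 members rose: *Tsc22d3* (log2 fold change 0.61, SE 0.14, adjusted p = 0.0199), *Sgk1* (0.49, SE 0.12, adjusted p = 0.031) and *Ddit4* (0.25, SE 0.06, adjusted p = 0.0171), where 1.33% of all genes were called higher. In the GABA-CB1 line, *Sgk1* rose (0.53, SE 0.10, adjusted p = 0.00781), where 0.761% of all genes were called higher. With the Glu-CB1 line given first, *Cdkn1a* had 0.37 and 0.53, *Nfkbia* had 0.31 and 0.31, *Fkbp5* had 0.16 and 0.11, and none of these passed (adjusted p from 0.0704 to 0.369). No member was called for a difference of this response between the lines, and 0% of 15570 genes were called in that comparison by edgeR. At an unadjusted p under 0.05, edgeR gave 0 members and 327 genes, and DESeq2 called 0 members and 0 genes. The estimate for *Tsc22d3* was lower by 0.27 in the GABA-CB1 line, with a 95% confidence interval from -0.67 to 0.12, which holds both 0 and a difference of the size of the response itself. The call of *Sgk1* in the Glu-CB1 line was lost without any 1 of 8 libraries (KO basal replicates 1, 6 and 7, WT basal replicates 4 and 5, WT open field replicate 2, KO open field replicates 2 and 6), with log2 fold changes from 0.46 to 0.48 and adjusted p from 0.0517 to 0.0604. DESeq2 called 6 members there and 2 in the GABA-CB1 line.

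Animal numbers in the sample titles fall into 5 ranges (3 of Glu-CB1 and 2 of GABA-CB1 mice), each with basal and open field mice. The difference of mean log2 CPM between states was positive in 5 of 5 ranges for *Sgk1* (0.29 to 0.66), *Tsc22d3* (0.18 to 0.90), *Nfkbia* (0.10 to 0.52), *Cdkn1a* (0.20 to 0.55), *Ddit4* (0.06 to 0.37), *Fkbp5* (0.09 to 0.20) and *Plin4* (0.28 to 0.99). It was positive in 4 ranges for *Zbtb16* and in 3 each for *Mt1* and *Mt2*. The smallest range held 2 basal and 3 open field mice, and the differences were not adjusted for genotype. These ranges are not named as batches in the labels. Within each line, all basal mice have lower library numbers in the titles than the open field mice. State and library order therefore cannot be told apart.

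Averaged over genotype and state, no member was called for a difference in level between the lines by edgeR or DESeq2, where edgeR called 1.25% of all genes. Each line has its own animal and library numbers, so line cannot be told apart from cohort or library order. At an unadjusted p under 0.05, 2 members were lower in the GABA-CB1 line, *Mt2* (log2 fold change -0.11, SE 0.04, adjusted p = 0.211) and *Fkbp5* (-0.07, SE 0.04, adjusted p = 0.387). Among all 15570 genes, 1026 were lower and 878 higher at the same unadjusted threshold.

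Each KO group was then compared with its WT littermates to ask whether loss of CB1 shifts these genes. No member passed the test in any of the 4 comparisons, with edgeR or with DESeq2. In basal mice edgeR called 0.0198% (Glu-CB1) and 0.245% (GABA-CB1) of all genes, and in open field mice 0.272% and 0.0199%. At an unadjusted p under 0.05, 1 member was found for Glu-CB1 open field mice and 0 for each of the other 3 comparisons. Among all genes, that threshold gave 541 of 15138 (Glu-CB1 basal), 1230 of 15082 (GABA-CB1 basal), 1051 of 15078 (Glu-CB1 open field) and 2000 of 15097 (GABA-CB1 open field). In basal Glu-CB1 mice, log2 fold changes ran from -0.27 for *Plin4* (95% confidence interval -1.67 to 1.13) to 0.19 for *Mt2* (-0.03 to 0.40). The *Plin4* estimate there changed sign with single mice, from -0.74 to 0.80 when each library was left out. In basal GABA-CB1 mice they ran from -0.11 for *Cdkn1a* (-0.42 to 0.21) to 0.20 for *Tsc22d3* (-0.18 to 0.58).

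After the open field, 9 of 10 members had a positive estimate in Glu-CB1-KO mice, with a median of 0.10 against 0.00 (-0.0025) over all genes. This count was not repeated without Glu-CB1-KO open field replicate 5, the highest mouse of the series for *Sgk1*, *Fkbp5*, *Tsc22d3*, *Ddit4* and *Plin4*. In GABA-CB1-KO mice 9 of 10 were also positive, with a median of 0.10 against 0.00 (0.0017), but this rested on replicate 4, the mouse with 4058 CPM of choroid plexus markers. Without it 4 of 10 were positive, the median was -0.01 (-0.0093), *Sgk1* had -0.02, *Cdkn1a* -0.22 and *Plin4* 0.23, and 0 members were called. Choroid plexus sums were 51.6 to 91.6 CPM in GABA-CB1-WT and 62.9 to 4058 CPM in GABA-CB1-KO open field mice, and all 7 markers had positive estimates with a median of 2.42, or 5 of 7 with a median of 0.56 without replicate 4. In basal mice of that line, the sums were 52.4 to 1510 CPM in WT and 48.5 to 88.3 CPM in KO, and all 7 markers had negative estimates with a median of -1.12. None of these marker estimates passed the test, and their part in the KO comparisons was not tested. Members vary together between mice, so counts of signs are not independent. *Plin4* was the member with an unadjusted p under 0.05. Glu-CB1-WT open field mice were at 1.56, 1.98, 2.40, 3.65 and 4.99 CPM, and the 7 Glu-CB1-KO open field mice ran from 1.91 to 17.6 CPM with a median of 5.63 CPM. The groups overlapped in the lower part of the range, and the log2 fold change was 1.47 (SE 0.51, 95% confidence interval 0.38 to 2.56, adjusted p = 0.444 with edgeR). In the GABA-CB1 line the same difference was 0.70 (-0.34 to 1.74, adjusted p = 0.538) with all mice. For *Fkbp5* the estimates were 0.11 in each line (-0.01 to 0.23 and -0.04 to 0.26), and for *Sgk1* 0.15 and 0.10 (-0.16 to 0.46 and -0.22 to 0.42).

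**Figure D3:**
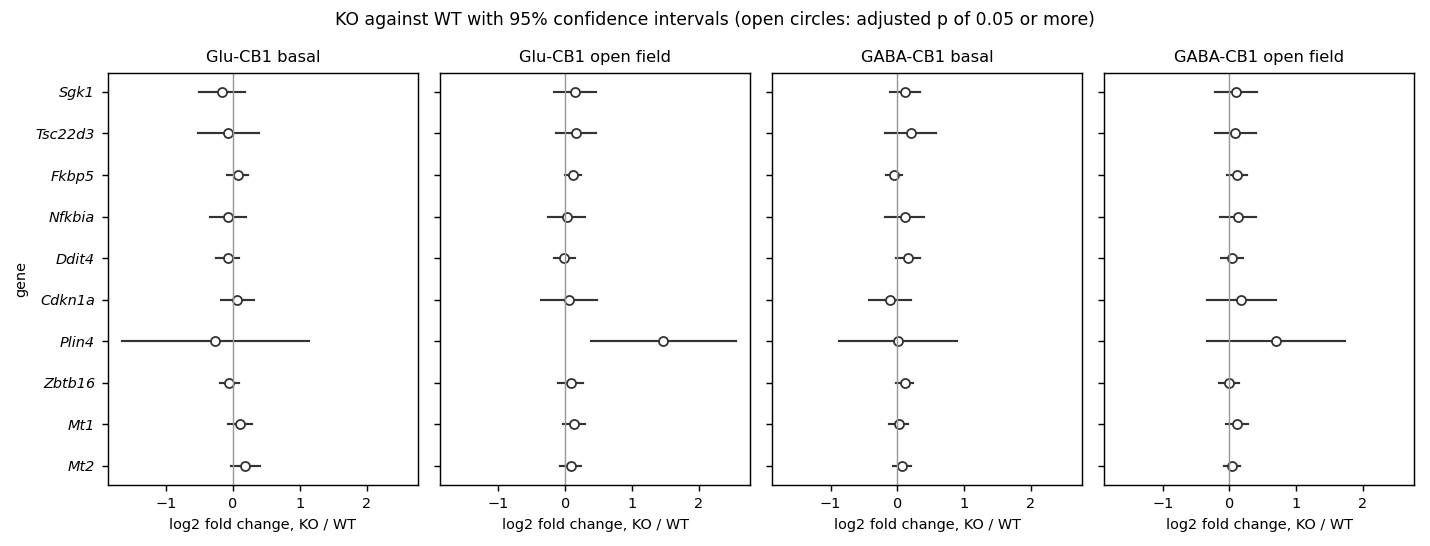
Log2 fold change of each member, KO over WT, with its 95% confidence interval, in the 4 combinations of line and state. Open circles did not pass the test, which holds for all 40 values. The interval of *Plin4* in Glu-CB1 open field mice runs from 0.38 to 2.56, and the others hold 0.

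The change of the genotype effect from basal to open field mice was tested as an interaction within each line. No member passed, and edgeR called 0% of genes for either line. At an unadjusted p under 0.05 edgeR gave 0 members in both, with 379 and 2237 genes, and DESeq2 called 0 members in both, with 0 genes for Glu-CB1 and 62 for GABA-CB1 mice. The estimate for *Plin4* in the Glu-CB1 line was 1.74 (95% confidence interval -0.12 to 3.60). The KO effect of the GABA-CB1 line minus that of the Glu-CB1 line was not called for any member in the basal state (0.279% of all genes called) or after the open field (0.568%). At an unadjusted p under 0.05 there were 0 members in each, beside 1317 genes (basal) and 1652 genes (open field). DESeq2 called 0 members in each. *Ddit4* had the lowest unadjusted p of the members in the basal state, with a difference of 0.24 (-0.02 to 0.49).

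Neither receptor passed the test after the open field. *Nr3c1* had a log2 fold change of -0.06 (SE 0.03, adjusted p = 0.178) and *Nr3c2* of -0.07 (SE 0.04, adjusted p = 0.386). *Hsd11b1*, which regenerates active corticosterone inside cells, had -0.03 (SE 0.04, adjusted p = 0.754). *Fkbp4*, the co-chaperone that assists nuclear transfer of the receptor, rose by 0.10 (SE 0.03, adjusted p = 0.00887), and it was the 1 gene called among 14 tested receptors, enzymes and chaperones. Among all genes, 5.53% were called higher and 3.1% lower in this comparison. Of 20 other glucocorticoid-responsive genes tested, 8 rose, 0 fell and 12 did not pass, with a median of 0.14. Those with the largest changes were *Errfi1*, an inhibitor of the EGF receptor (0.37, adjusted p = 7.12e-08), *Per1* of the circadian clock (0.36, adjusted p = 5.27e-05) and *Arrdc2*, an arrestin domain protein (0.28, adjusted p = 0.0155). *Errfi1* and *Per1* are also induced by neuronal activity, so the list is not specific to the hormone.

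Of 8 genes of zinc handling other than *Mt1* and *Mt2* that were tested, 2 rose and 1 fell, where 5.53% of all genes were called higher and 3.1% lower. *Mtf1*, the transcription factor that binds metal response elements, rose by 0.09 (SE 0.02, adjusted p = 0.00129), the zinc importer *Slc39a14* rose by 0.08 (SE 0.02, adjusted p = 0.00242), and the zinc exporter *Slc30a1* had -0.09 (SE 0.02, adjusted p = 0.0106). Immediate early genes moved far more, with 11 of 14 higher and a median of 0.58, led by *Egr2* (2.37), *Fos* (1.93) and *Fosb* (1.33), transcription factors of the activity response. Against WT mice, the genes called from any list were *Npas4* (-0.49, adjusted p = 0.00604) and the CA3 and CA2 marker *Bok* (-0.52, adjusted p = 0.00328) in basal GABA-CB1-KO mice and *Iyd*, another marker of that list (-0.56, adjusted p = 0.0463), in Glu-CB1-KO open field mice.

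Cell type markers moved with the state as follows, again beside 3.1% of all genes called lower and 5.53% higher. *Sox9* of 8 astrocyte markers (-0.21, adjusted p = 0.000131), *Opalin* of 8 oligodendrocyte markers (-0.25, adjusted p = 0.0153), and *Kdr* (-0.22, adjusted p = 0.0374) and *Pdgfrb* (-0.12, adjusted p = 0.0229) of 9 endothelial and mural markers fell, and *Tmem119* of 7 microglia markers rose (0.12, adjusted p = 0.0413). None of 7 dentate granule cell, 6 CA1, 6 CA3 and CA2 or 7 choroid plexus markers passed, although all 7 choroid plexus markers had positive estimates with a median of 0.27. Their part in the response of the members was not tested. Without GABA-CB1-KO open field replicate 4 and Glu-CB1-WT basal replicate 3, the same comparison called the same 6 members, with log2 fold changes of 0.52 for *Sgk1*, 0.48 for *Tsc22d3* and 0.37 for *Cdkn1a*.

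Members also differed between mice of the same group. After subtraction of the 8 group means from log2 CPM, all 45 pairs of members were positively correlated over the 48 mice, with a median Pearson's r of 0.51, and 23 pairs were above 0.5. Over all genes tested, the median r with a member lay between -0.02 and 0.01, and the upper end of the central 95% of genes between 0.38 (*Sgk1*) and 0.47 (*Plin4*). These correlations are descriptive, and the 2 values of a mouse share its dissection, library and scaling. The highest were *Tsc22d3* with *Nfkbia* (r = 0.84, Spearman's rho = 0.82), *Tsc22d3* with *Plin4* (r = 0.81, rho = 0.80), *Sgk1* with *Nfkbia* (r = 0.81, rho = 0.77), *Mt1* with *Mt2* (r = 0.79, rho = 0.86), *Fkbp5* with *Plin4* (r = 0.78, rho = 0.82) and *Sgk1* with *Ddit4* (r = 0.78, rho = 0.79). With the 2 mice farthest from the median of the gene named first left out, these were 0.80, 0.79, 0.75, 0.82, 0.76 and 0.73. *Plin4*, which did not pass the test of the open field, thus followed *Tsc22d3* and *Fkbp5* from mouse to mouse, and the correlation with *Tsc22d3* was 0.87 in basal and 0.75 in open field mice. The lowest correlations involved *Mt2*, with 0.07 for *Zbtb16*, 0.12 for *Plin4* and 0.16 for *Cdkn1a*.

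**Figure D4:**
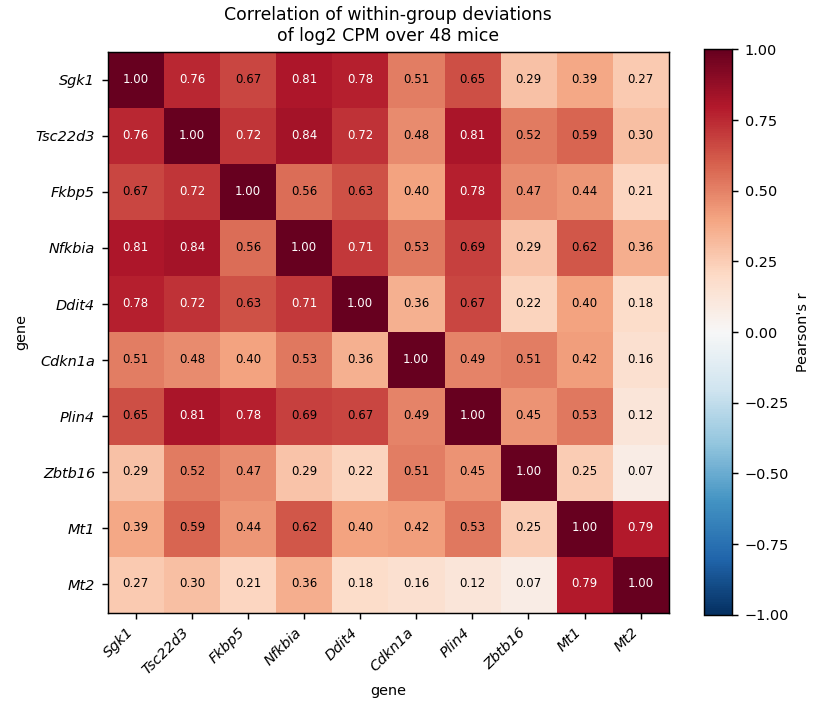
Pearson's r between members over 48 mice, computed on log2 CPM after subtraction of the group means (color from -1 to 1, value in each square). *Sgk1*, *Tsc22d3*, *Nfkbia*, *Ddit4*, *Fkbp5* and *Plin4* form the darkest block, and *Mt2* is dark only with *Mt1*.

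The correlations of the members with the number of reads on genes ran from 0.02 (*Zbtb16*) to 0.38 (*Ddit4*), and those with the principal component from -0.18 (*Zbtb16*) to 0.38 (*Plin4*). Summed astrocyte markers were negatively correlated with all 10 members, from -0.15 (*Cdkn1a*) to -0.55 (*Tsc22d3*). Summed oligodendrocyte markers were positively correlated with all 10, from 0.02 (*Zbtb16*) to 0.52 (*Sgk1*). Those of endothelial and mural cells ran from -0.42 (*Ddit4*) to 0.21 (*Cdkn1a*). *Nr3c1* was negatively correlated with all 10 members, from -0.01 (*Zbtb16*) to -0.46 (*Mt2*), and *Fos* stayed between -0.13 (*Nfkbia*) and 0.22 (*Cdkn1a*). *Arc*, the other activity gene, was positively correlated with all 10 members, from 0.14 (*Mt2*) to 0.48 (*Ddit4*), with 0.46 for *Tsc22d3* and for *Mt1*. Whether any of these sets the shared variation of the members was not tested.

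Across the transcriptome, the 3 genes most alike in this variation were named for each member. For *Sgk1* they were *Nfkbia* (0.81), *Arrdc2* (0.80) and *Plekhf1* (0.79). For *Fkbp5* they were *Sdc4* (0.81), *Adipor2* (0.78) and *Plin4* (0.78). For *Tsc22d3* they were *Sdc4* (0.89), *Klf15* (0.86) and *Hif3a* (0.86), and for *Plin4* *Sdc4* (0.90), *Sult1a1* (0.89) and *Hif3a* (0.87). *Sdc4*, a membrane proteoglycan, thus led the list of 3 members. For *Nfkbia* they were *Tsc22d3* (0.84), *Sgk1* (0.81) and *Lfng* (0.81), and for *Ddit4* *Arl4d* (0.82), *Arrdc2* (0.80) and *Sgk1* (0.78). *Mt1* had *Mt2* (0.79), *Prodh* (0.71) and *Ilk* (0.70), and *Mt2* had *Mt1* (0.79), *Man2b2* (0.66) and *Ndufa11* (0.59). *Cdkn1a* had *Bcl2l1* (0.71), *Pglyrp1* (0.69) and *AI464131* (0.68), and *Zbtb16* had *Zhx3* (0.69), *Tns3* (0.66) and *Prkar2a* (0.65). No member was among the 3 genes of *Cdkn1a* or *Zbtb16*.

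**Figure D5:**
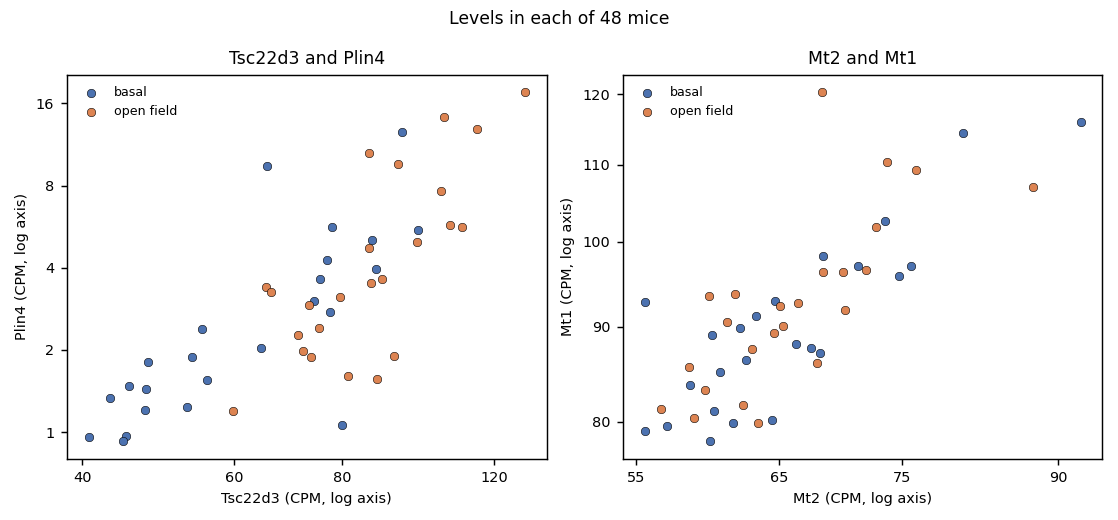
Levels of *Plin4* against *Tsc22d3* and of *Mt1* against *Mt2* in each of 48 mice, in CPM on log axes, basal in blue and open field in orange. Basal and open field mice lie along the same band in the left panel, with basal mice reaching 12.6 CPM of *Plin4*, and the states are mixed along the band in the right panel.

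Basal mice were not uniformly low. Of the 6 members that rose, Glu-CB1-WT basal replicate 3 lay above the open field median in 4, with 144 CPM of *Sgk1*, 93.8 of *Tsc22d3*, 20.8 of *Nfkbia* and 39.1 CPM of *Ddit4*, and it had 12.6 CPM of *Plin4*. The other 4 mice of that group had 73.4 to 105 CPM of *Sgk1*. GABA-CB1-KO basal replicate 4 lay above the open field median in 3 members, and 15 of 24 basal mice in none. Of the open field mice, GABA-CB1-WT open field replicate 5 lay below the basal median in 3 members, and 19 of 24 in none. That mouse had the lowest open field value of *Sgk1* (82.9 CPM), *Fkbp5* (67.7), *Tsc22d3* (59.8), *Ddit4* (30.2) and *Plin4* (1.19 CPM). Glu-CB1-KO open field replicate 5 had the highest value of the same 5 members, with 188 CPM of *Sgk1*, 108 of *Fkbp5*, 130.1 of *Tsc22d3*, 44.7 of *Ddit4* and 17.6 CPM of *Plin4*.

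Shared sequence bears on the counts of few members. Of the 50-base stretches of their GENCODE transcripts, none of *Ddit4*, *Nfkbia*, *Mt1*, *Mt2* or *Plin4* occurred in a transcript of another gene. The share was 0.243% for *Sgk1*, 0.321% for *Fkbp5*, 0.456% for *Tsc22d3*, 0.192% for *Zbtb16* and 2.14% for *Cdkn1a*. Exons of *Plin4* share 14 bases with *Hdgfrp2* on the opposite strand, and exons of *Nfkbia* share 15 bases with *Mir1198*.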

How the data were processed

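RNA of hippocampal CA tissue from 48 male mice was amplified with the Ovation RNA-Seq System v2 and made into libraries with the Ovation Ultralow System v2. The authors used bbduk to trim reads of 1 end, STAR 2.6.0a to align to mm10, and featureCounts 1.6.2 for strand-specific gene counts. The sources used here do not say that the amplification keeps the strand. The deposited values are raw counts per gene, as whole numbers without normalization, and nothing before the counts was repeated. FastQC and MultiQC 1.8 are named in the submitters' processing notes.

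Groups were taken from the labels. Counts were tested with edgeR 4.0.16 (R 4.3.3): TMM, filterByExpr, quasi-likelihood F test, Benjamini-Hochberg adjustment over all genes tested, called at an adjusted p under 0.05. The open field response of a line was fitted over its 24 libraries with genotype as a covariate, that of both lines, its difference and the line difference over all 48 libraries with 1 mean per group, KO against WT over the 12 libraries concerned, and interactions over 24. Standard errors come from the F statistic. Levels are CPM scaled by TMM, with a prior count of 2 for log2 CPM. Samples are separate mice. No pair of libraries within a group, over 123 pairs, agreed within sampling noise (lowest chi-square per degree of freedom 2.93). Libraries of 25892700 to 34091100 reads have no molecular identifiers, so the spread between mice is given as error. No measurement column was left unused. For some of the comparisons the test was run on simulated counts, drawn for each gene independently of the others, unlike the correlated members here.

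The members and the gene lists were chosen with earlier results of these data known. Named were all 10 members, *Nr3c1*, *Nr3c2*, *Hsd11b1*, *Fkbp4*, up to 3 called genes of each list with the largest change, list genes called in KO against WT, the 3 genes most alike to each member, *Arc* and *Cnr1*. Other genes, among them *Sox9* and the 4 further cell type markers called after the open field, were named after their values were seen. Alternatives were DESeq2 1.42.0, RLE size factors, looser (any count of 1) and stricter (10 counts in each library) filters, 1 fit over 48 libraries, animal number ranges, a block for the replicate number, and leaving out each library. A principal component as a covariate, the removal of 2 libraries together, and the count of signs without GABA-CB1-KO open field replicate 4 were added after the data were seen. Replicate numbers were checked as pairs: of 44 same-numbered pairs of libraries, 12 had deviations from the group means correlated above 0.1 (-0.33 to 0.38), so the numbers were not treated as pairs. Levels, correlations and plots were made in Python 3.11.15 (scipy 1.17.1, pandas 2.3.3, numpy 2.4.6, matplotlib 3.10.9). Promoters came from RefSeq (GRCm38.p6) and transcripts from GENCODE M21.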

Additional observations from a re-analysis of the deposited data

Results flagged for a closer look

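In each of the 8 groups, each member was checked for a mouse far from the others by Dixon's ratio, in 80 combinations of gene and group, of which 4 exceeded the 95% critical value. Chance gives about 1 in 20. *Nfkbia* in Glu-CB1-WT basal mice had its highest value at 20.8 CPM in replicate 3, against 14.2 CPM in the nearest mouse. The same mouse had the highest *Plin4* of that group, at 12.6 CPM against 4.27 CPM. *Nfkbia* in GABA-CB1-KO open field mice had its highest value at 27.7 CPM in replicate 4, against 18.6 CPM in the nearest mouse. *Zbtb16* in GABA-CB1-WT open field mice had its highest value at 89.5 CPM in replicate 6, against 77.9 CPM in the nearest mouse. The causes were not tested.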

How the results depend on the processing

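Over both lines, 6 members were called under all 8 alternatives to the test of the open field response, and 6 or 7 when each library was left out. No member was called in the 10 comparisons other than the open field responses under any alternative, leave-one-out included. Members called in the single lines changed with DESeq2, to 6 in the Glu-CB1 and 2 in the GABA-CB1 line. In the Glu-CB1 line, *Fkbp5* (0.16) also passed with the principal component as a covariate. *Fkbp5* and *Nfkbia* also passed there in some fits that left out a library. Over all genes, DESeq2 called 502 (Glu-CB1) and 269 (GABA-CB1) after the open field, 7, 102, 124 and 141 between KO and WT (Glu-CB1 basal, GABA-CB1 basal, Glu-CB1 open field, GABA-CB1 open field), 62 for genotype by state in the GABA-CB1 line, and 75 and 195 for the KO effect between lines (basal, open field). With the principal component as a covariate, counts were 588 for the open field in the Glu-CB1 line, 19 for the difference between lines, 385 for the line difference, 269 and 83 for KO against WT in GABA-CB1 basal and Glu-CB1 open field mice, 512 for genotype by state in the GABA-CB1 line, and 89 and 164 for the KO effect between lines. All 48 libraries in 1 fit gave 7 for KO against WT in Glu-CB1 basal mice, 106 in GABA-CB1 open field mice and 53 for the KO effect between lines after the open field, and the animal number range gave 24 for KO against WT in GABA-CB1 basal mice. With the replicate number as a block, counts were 36 for the open field in the GABA-CB1 line, 8, 3 and 1 for KO against WT in GABA-CB1 basal, Glu-CB1 open field and GABA-CB1 open field mice, and 54 for the KO effect between lines after the open field, and the block changed no call of a member. The cause of these changes was not tested.

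Leaving out each library in turn gave 149 to 440 genes for the open field in the Glu-CB1 line, 71 to 267 in the GABA-CB1 line, 0 to 1 for their difference, 142 to 321 for the line difference, 3 to 5, 17 to 34, 14 to 48 and 2 to 11 for KO against WT in the order above, 0 to 1 for genotype by state in the GABA-CB1 line, and 50 to 112 for the KO effect between lines after the open field. The direction turned for values near 0: *Mt1* in the Glu-CB1 line after the open field (-0.00033 with all 48 libraries, -0.010 with the animal number range, -0.021 to 0.027 leaving out a library), *Mt2* (-0.031 to 0.0088) and *Zbtb16* (-0.040 to 0.015) in the GABA-CB1 line, and, between KO and WT, *Ddit4* in Glu-CB1 open field mice (-0.059 to 0.021) and *Zbtb16* in GABA-CB1 open field mice (0.034 with the block, -0.051 to 0.050). It also turned for a larger value, *Plin4* between KO and WT in Glu-CB1 basal mice, at -0.27 in the main test. That estimate was 0.33 with the block, 0.077 with the principal component, and -0.74 to 0.80 leaving out a library. DESeq2 also passed *Fkbp5*, *Cdkn1a* and *Nfkbia* in the Glu-CB1 line and *Cdkn1a* in the GABA-CB1 line. Of 90 correlations between members under other settings, 84 moved by no more than their standard error. The prior count of 0.5 moved none by more, and the 6 that did came from leaving out the 2 farthest mice. Among them, *Zbtb16* with *Mt2* went from 0.07 to 0.28 and *Cdkn1a* with *Nfkbia* from 0.53 to 0.36. The raw library total moved no group mean by more than its SD.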
